A study of Mus musculus with 12 samples.

Results

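Mx1, Mx2, Rsad2 and Cmpk2 are antiviral genes of the type I interferon response, described here in mouse CD8+ T cells given an interferon, a T cell receptor stimulus, both or neither. They were chosen by name, as genes that may depend on type I interferon and hardly on anti-CD3, and each was read from the single row of the value table to which the platform annotation gives that symbol alone. The 4 genes are thus 4 of 23521 rows with exactly 1 symbol, in a table of 33793 rows. The choice was made with results of these arrays known, so the interferon and anti-CD3 changes of the 4 genes, and the differences between those changes, are given as descriptions without a test.

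The cells were splenic CD8+ T cells of C57BL/6 mice, purified by removing other cells, and RNA was taken after 6 h. The 4 groups of 3 arrays were anti-CD3 antibody with IFN-4a, anti-CD3 alone, PBS with IFN-4a, and PBS alone as mock treatment. Cells with anti-CD3, an antibody that engages the T cell receptor complex, are called stimulated, and cells with PBS resting. IFN-4a is the interferon of this series, whose title names type I interferon. All groups share strain, tissue and purification, and the labels used here give neither the animals' age nor whether replicates came from separate animals, so every p-value reflects only how far arrays of a group differ, a difference that may be technical.

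Type I interferon binds a receptor made of the Ifnar1 and Ifnar2 chains, whose kinases Jak1 and Tyk2 activate transcription factors, Stat2 among them. Stat2 joins Irf9 in a complex that binds DNA elements of the ISRE type in the promoters of antiviral genes. Mx proteins are dynamin-like GTPases that block viral replication, in mice Mx1 in the nucleus and Mx2 in the cytoplasm. Rsad2 encodes viperin, a radical SAM enzyme that turns the nucleotide CTP into a chain terminator for some viral polymerases, and Cmpk2 encodes a mitochondrial nucleotide kinase that can phosphorylate CMP and UMP. Most inbred mouse strains, C57BL/6 among them, carry defective Mx1 and Mx2 alleles, and RefSeq lists both genes of C57BL/6J (GRCm38.p6) as transcribed pseudogenes. Rsad2 and Cmpk2 are listed as protein coding. The values below are RNA signals and say nothing about protein.

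The genes form 2 pairs of neighbours, Rsad2 next to Cmpk2 on chromosome 12 and Mx1 and Mx2 on chromosome 16 with Fam3b between them. Rsad2 and Cmpk2 lie on opposite strands and their starts face each other. The RefSeq promoter windows of both are shown because the results below set this pair side by side. Each window runs from 250 bases before to 50 bases after the annotated start, 5′ to 3′ on the gene's own strand. Capitals mark letters that match GAAANNGAAA, or TTTCNNTTTC on the other strand, a short form of the ISRE. The Rsad2 window (GRCm38.p6, chr12:26456403-26456702, minus strand) and the Cmpk2 window (GRCm38.p6, chr12:26468965-26469264, plus strand) read as follows.
Rsad2: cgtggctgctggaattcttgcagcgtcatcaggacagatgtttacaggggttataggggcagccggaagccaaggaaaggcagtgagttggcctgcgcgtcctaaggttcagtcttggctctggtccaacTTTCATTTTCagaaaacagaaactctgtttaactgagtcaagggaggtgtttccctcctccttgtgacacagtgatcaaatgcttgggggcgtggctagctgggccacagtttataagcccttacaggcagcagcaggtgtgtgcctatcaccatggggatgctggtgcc
Cmpk2: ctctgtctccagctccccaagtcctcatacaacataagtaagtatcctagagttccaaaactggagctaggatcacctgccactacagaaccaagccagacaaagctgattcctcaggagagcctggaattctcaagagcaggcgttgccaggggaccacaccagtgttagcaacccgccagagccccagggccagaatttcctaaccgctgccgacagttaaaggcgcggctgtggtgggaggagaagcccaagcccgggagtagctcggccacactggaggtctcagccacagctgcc

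The Rsad2 window held 1 such match, TTTCATTTTC, which begins 120 bases before the annotated start. The Cmpk2 window held none. Of 32851 RefSeq promoter windows of this length, 3.44% held a match. The letters TTCNNNGAA, a short form of the GAS element and the same on both strands, were in neither window and in 8.30% of all windows. A match is only a stretch of letters, and its absence says only that these letters are not in this window. No promoter windows of Mx1 and Mx2 were analysed here.

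Values are read as log2, and the authors subtracted from each row its own median over the 12 arrays. A value of 0 is therefore that gene's own middle and not a level, and levels cannot be set against each other between genes. No source used here states the log base, and another base would change every fold below. The array medians lay between -0.0157 and 0.0165, the lowest correlation between arrays of 1 group across all rows was 0.608 and the highest between groups was 0.527. Because levels were removed, the cell type label could be checked only through changes. With IFN-4a, none of the markers of CD4 T cells (4 measured), B cells (5), granulocytes (5), monocytes with macrophages and dendritic cells (9) or erythroid cells and platelets (2) passed an adjusted p of 0.05 in limma in either state, and 1 of 5 NK cell markers, Eomes, was higher in stimulated cells (log2 0.46). Over all rows 1.97% passed as higher and 1.36% as lower in stimulated cells, and 4.17% and 8.08% in resting cells. At an unadjusted p under 0.05, those 5 lists had from 0 to 1 markers in stimulated cells and from 0 to 3 in resting cells. With anti-CD3 alone the NK cell markers had Eomes higher and Klre1 lower, Itgax of the 9 myeloid markers was higher, and Cd79b, Ctla4, Elane and Itga2b were lower, where 13.9% of all rows were higher and 17.5% lower. Of these calls Itga2b (log2 -0.23, adjusted p = 0.0445) was lost under 10 of 21 alternatives, Elane (log2 -0.24, adjusted p = 0.0258) under 4 and Klre1 under 1. Itga2b was lost with the replicate block (adjusted p = 0.0563), and on leaving out replicate 2 or 3 of anti-CD3 alone, 1 or 2 of PBS, 1 or 3 of PBS with IFN-4a, or 3 of anti-CD3 with IFN-4a (adjusted p up to 0.14). Elane was lost without replicate 3 of anti-CD3 alone or 1 or 3 of PBS (adjusted p up to 0.117), and Klre1 without replicate 2 of anti-CD3 alone (adjusted p = 0.0601). Bulk values do not show whether other cells or the CD8 T cells themselves carried the transcripts that changed, Eomes, Itgax and Ctla4 among them. The part of these markers in the results was not tested. Of 6 CD8 T cell markers, Thy1 (log2 -0.63) and Cd3d (log2 -0.24) were lower with IFN-4a in resting cells and none passed in stimulated cells in limma (1 at an unadjusted p under 0.05), and 4 of the 6 were lower with anti-CD3, with or without IFN-4a, against 14.5% and 17.5% of all rows. In these bulk samples fewer cells of a type and less RNA per cell cannot be told apart.

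All 4 genes separated the arrays by IFN-4a, with or without anti-CD3. Mx1 (Entrez gene 17857) had 1.86, 2.15 and 2.13 in anti-CD3 with IFN-4a, against -2.09, -2.01 and -2.22 in anti-CD3 alone. In PBS with IFN-4a it had 2.23, 2.39 and 2.16, against -2.08, -1.95 and -1.86 in PBS alone. All 6 arrays with IFN-4a were far above all 6 without it, and the gap was much wider than the spread within any group. The IFN-4a change of Mx1 was log2 4.15 (SE 0.09, 17.8-fold) in stimulated and log2 4.22 (SE 0.09, 18.7-fold) in resting cells.

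Mx2 (Entrez gene 17858), the other Mx gene, behaved much like it. It had 1.93, 1.99 and 2.04 in anti-CD3 with IFN-4a, against -2.29, -2.39 and -2.55 in anti-CD3 alone. Its values were 2.28, 2.42 and 2.16 in PBS with IFN-4a, against -2.15, -1.93 and -2.33 in PBS alone. Again no array with IFN-4a came near one without it. Its IFN-4a change was log2 4.40 (SE 0.10, 21.1-fold) in stimulated and log2 4.42 (SE 0.10, 21.5-fold) in resting cells, the widest of the 4 genes in stimulated cells.

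Rsad2 (Entrez gene 58185), the viperin gene, had 1.92, 2.02 and 2.03 in anti-CD3 with IFN-4a, against -2.34, -2.11 and -1.89 in anti-CD3 alone. It had 1.94, 1.99 and 1.89 in PBS with IFN-4a, against -2.24, -2.48 and -2.08 in PBS alone. The 6 arrays with IFN-4a were tightly packed, and the 6 without it were more spread. The IFN-4a change was log2 4.10 (SE 0.11, 17.2-fold) in stimulated and log2 4.20 (SE 0.11, 18.4-fold) in resting cells.

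Cmpk2 (Entrez gene 22169), the nucleotide kinase gene next to Rsad2, had 1.72, 1.79 and 1.89 in anti-CD3 with IFN-4a, against -1.98, -1.92 and -1.72 in anti-CD3 alone. It had 2.07, 2.07 and 1.93 in PBS with IFN-4a, against -2.41, -2.70 and -2.58 in PBS alone. None of the 4 groups of arrays overlapped for Cmpk2: it was highest in PBS with IFN-4a, then in anti-CD3 with IFN-4a, in anti-CD3 alone and in PBS alone. The IFN-4a change was log2 3.67 (SE 0.09, 12.8-fold) in stimulated and log2 4.59 (SE 0.09, 24.1-fold) in resting cells, the narrowest and the widest of the 4 genes in those states.

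**Figure D1:**
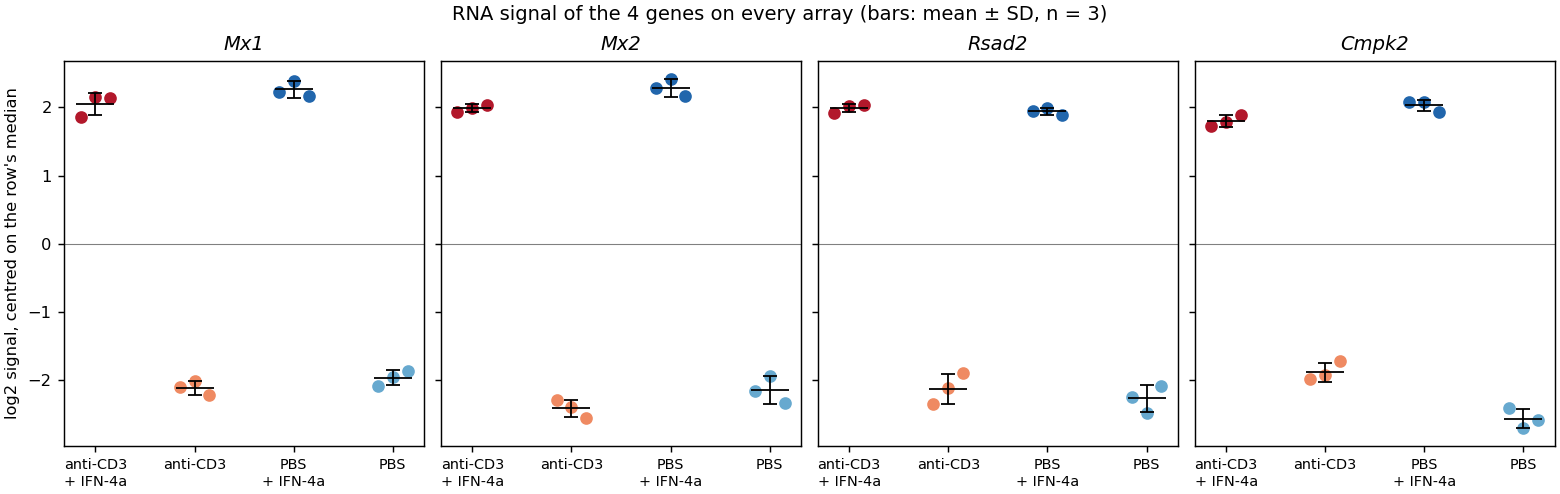
Log2 signal of each gene, centred on the row's median, on the 12 arrays (points), with the mean and SD of each group (bars, n = 3). The IFN-4a groups of every gene lie near 2 and the others near -2, and only Cmpk2 has anti-CD3 alone clear of PBS alone.

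Read against all rows, the 4 genes were at the top of the interferon response. For all 4 the arrays with IFN-4a did not overlap those without it, in stimulated and in resting cells. Of the 23521 rows, 8.89% were higher without overlap in stimulated and 11.9% in resting cells. By size the 4 genes stood at places 2 to 10 in stimulated and 8 to 14 in resting cells. Their median change was log2 4.12 in stimulated and 4.32 in resting cells, against -0.00312 and -0.0106 over all rows. These places follow from how the genes were chosen. Quantile normalization of the centred values, an alternative scaling, gave narrower changes in resting cells, from log2 3.23 for Rsad2 to 3.49 for Mx2 and Cmpk2, with every sign kept. This scaling gives every array the same lowest and highest values, and the 4 genes lie at those ends. Here and below, the centred values cannot tell whether the deposited or the rescaled change is nearer the true one.

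**Figure D2:**
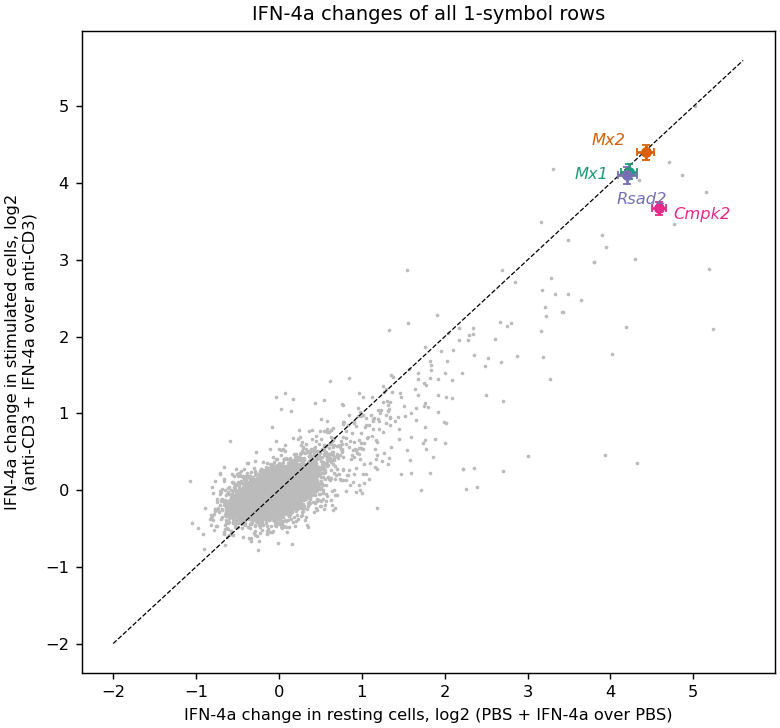
IFN-4a change in resting cells (horizontal axis, log2) against that in stimulated cells (vertical axis, log2) for 23521 rows (grey) and the 4 genes (colours, bars are SE); the dashed line marks equal changes. Mx1, Mx2 and Rsad2 lie on the line and Cmpk2 lies below it, at 4.59 and 3.67.

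The anti-CD3 changes of the 4 genes were small beside their interferon changes, again a description of what they were chosen for. With IFN-4a in both groups, anti-CD3 changed Mx1 by log2 -0.21 (SE 0.09), Mx2 by -0.30 (SE 0.10), Rsad2 by 0.05 (SE 0.11) and Cmpk2 by -0.23 (SE 0.09). The arrays of both groups did not overlap for Mx1, Mx2 and Cmpk2, which were lower with anti-CD3, as were 22.0% of all rows by that count. Without IFN-4a, anti-CD3 changed Mx1 by log2 -0.14 (SE 0.09), Mx2 by -0.27 (SE 0.10), Rsad2 by 0.15 (SE 0.11) and Cmpk2 by 0.69 (SE 0.09). The arrays overlapped for Mx1, Mx2 and Rsad2. Cmpk2 was 1.61-fold higher in anti-CD3 alone than in PBS alone, with no overlap, as were 16.9% of all rows. These smaller changes depended on the scaling. Under quantile normalization all 4 were lower with anti-CD3 alone, Mx1 at log2 -0.95, Mx2 at -1.49, Rsad2 at -0.81 and Cmpk2 at -0.31, so that Rsad2 and Cmpk2 changed sign; with IFN-4a Rsad2 turned to -0.13.

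The interaction takes the IFN-4a change of resting cells from that of stimulated cells, and equals the anti-CD3 change with IFN-4a minus that without it. Because it is built from the changes for which the 4 genes were chosen, it is given for them as a description. The 95% intervals come from the spread between arrays and are not read as a test. For Cmpk2 the difference was log2 -0.91 (95% interval -1.18 to -0.65), so that its IFN-4a change was 1.89-fold smaller in stimulated than in resting cells. The difference was seen on both sides. Cmpk2 was lower in all 3 anti-CD3 with IFN-4a arrays than in all 3 PBS with IFN-4a arrays. It was higher in all 3 anti-CD3 arrays than in all 3 PBS arrays. Each alone is common: of all rows, 22.0% were lower without overlap in the first comparison and 16.9% higher in the second. After quantile normalization the difference was log2 -0.06, and without any single array it lay between -0.99 and -0.84.

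In the other 3 genes the difference was closer to 0. It was log2 -0.07 for Mx1 (95% interval -0.35 to 0.21), -0.02 for Mx2 (-0.33 to 0.28) and -0.10 for Rsad2 (-0.43 to 0.23). The intervals leave room for moderate differences in either direction. After quantile normalization the 3 differences had the other sign, at 0.64 for Mx1, 1.02 for Mx2 and 0.68 for Rsad2. Whether the differences of these genes differ from each other was not tested.

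**Figure D3:**
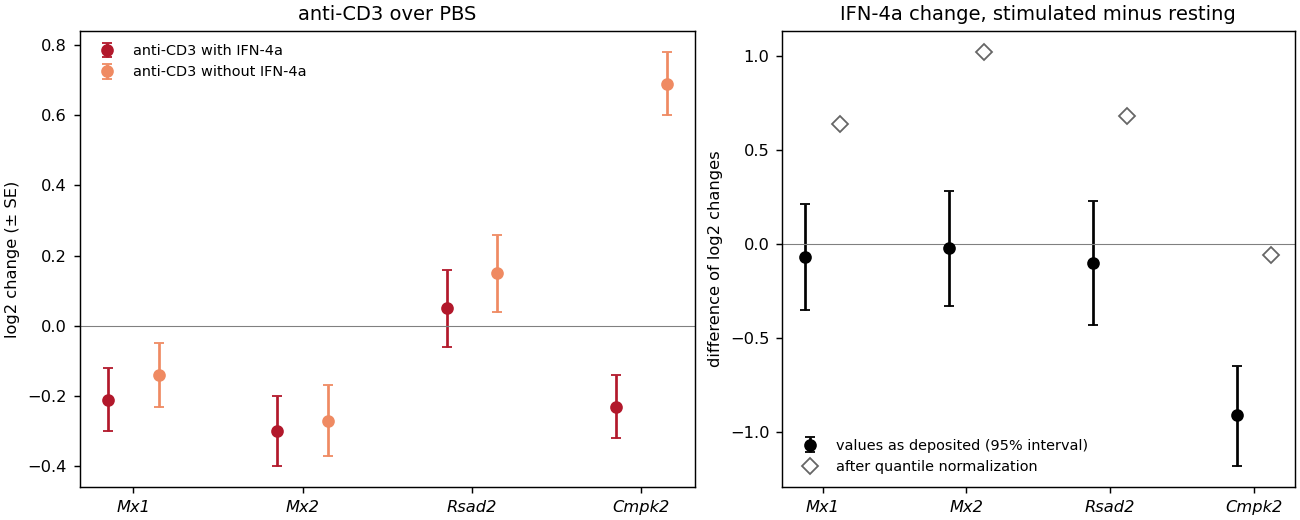
Left, anti-CD3 change (log2, bars are SE) of each gene with and without IFN-4a; right, IFN-4a change in stimulated minus resting cells (log2, bars are 95% intervals), with the value after quantile normalization as open diamonds. Cmpk2 alone stands at -0.91 on the deposited values, and the normalization moves all 4 genes up. The 95% intervals come from the spread between arrays and are not read as a test.

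The genes upstream of the 4 were taken from lists of the interferon pathway. Among ligands, the interferon gamma gene Ifng was higher with IFN-4a in stimulated cells (log2 1.18, adjusted p = 2.21e-06), the only one of 7 measured ligands to pass there. None passed in resting cells in limma, where 2 had an unadjusted p under 0.05. Ifng stood at log2 0.17 in resting cells, and at -0.55 after quantile normalization (adjusted p = 0.000438). Of all rows, 1.97% were higher and 1.36% lower with IFN-4a in stimulated cells, and 4.17% and 8.08% in resting cells. Anti-CD3 alone raised Ifng by log2 3.93 (adjusted p = 3.2e-12), beside which the Cmpk2 value of 0.69 stands; the part of Ifng in the Cmpk2 values was not tested. The type I genes Ifnb1, Ifna1, Ifna2 and Ifna4 lay between log2 -0.09 and 0.18 with anti-CD3 alone, none past the threshold.

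Of 7 receptor and kinase genes, 1 was higher with IFN-4a in stimulated cells (Jak2, log2 0.28, adjusted p = 0.0128). The Jak2 call was lost on leaving out replicate 3 of anti-CD3 with IFN-4a (adjusted p = 0.0557) or replicate 3 of anti-CD3 alone (adjusted p = 0.0607). In resting cells 1 was lower (Ifngr2, log2 -0.41). The backgrounds were 1.97% higher and 1.36% lower in stimulated cells, and 4.17% higher and 8.08% lower in resting cells. Anti-CD3 alone lowered 6 of the 7, where 17.5% of all rows were lower, and raised Jak2. The receptor chain genes Ifnar1 and Ifnar2 fell by 0.64 and 0.28 on the log2 scale with anti-CD3 alone, and by 0.62 and 0.27 with anti-CD3 on top of IFN-4a.

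Several transcription factor genes of the pathway were higher with IFN-4a. Of 6 measured, 3 were higher in stimulated cells and 5 in resting cells, with medians of log2 0.42 and 1.23. Of all rows, 1.97% and 4.17% were higher in those states. Irf7, which drives interferon genes, rose by log2 2.32 in stimulated and 3.43 in resting cells. Stat2 rose by 1.53 and 2.20, and its partner Irf9 by 0.66 and 1.76. Across all rows the interaction passed for 0.855% in limma, 0.591% with a smaller change in stimulated cells. It passed for 4 of the 6, all with the smaller change in stimulated cells: Irf7 (log2 -1.11), Irf9 (log2 -1.10), Irf1 (log2 -0.77) and Stat2 (log2 -0.67). After quantile normalization Irf9 at -0.87 and Irf1 at -0.56 still passed, and Irf7 at -0.27 and Stat2 at -0.24 did not. Anti-CD3 alone raised the same 4 genes on the deposited values, Irf1 by log2 1.14, Irf7 by 0.89, Irf9 by 0.83 and Stat2 by 0.59, but quantile normalization turned Irf7 to -0.11 and Stat2 to -0.05.

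Usp18, which encodes a brake on the type I interferon receptor, stood out among the feedback genes. It rose with IFN-4a by log2 3.47 in stimulated and 4.76 in resting cells (interaction -1.29, adjusted p = 0.000262) and with anti-CD3 alone by 1.14. After quantile normalization neither the interaction (-0.36, adjusted p = 0.238) nor the change with anti-CD3 alone (0.02, adjusted p = 0.892) passed. Socs1, another feedback gene, rose by log2 0.53 in resting cells, and stood at 0.07 (adjusted p = 0.725) in stimulated cells. Its interaction did not pass in limma (-0.45, adjusted p = 0.0868), and anti-CD3 alone raised it by log2 0.73. Of 4 rows of the 3 brake genes, 1 was higher with IFN-4a in stimulated and 2 in resting cells. Of all rows, 1.97% and 4.17% were higher in those states.

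Genes that share the enzymatic class or chemistry of the 4 were read against the shares of all rows that passed, 1.97% higher and 1.36% lower in stimulated and 4.17% and 8.08% in resting cells, and counts of 0 or 1 in lists this short are near those shares. Of 8 rows of dynamin superfamily genes, the relatives of Mx that cut and fuse membranes, none passed with IFN-4a in either state (medians log2 -0.06 in stimulated and -0.04 in resting cells). In limma 1 of the 8 had an unadjusted p under 0.05 in each state. Of 6 radical SAM enzyme genes, the class of viperin, none passed in stimulated cells in limma (3 at an unadjusted p under 0.05) and Elp3 was lower in resting cells (log2 -0.22, adjusted p = 0.0346). The Elp3 call was lost on leaving out any 1 of the 6 arrays compared (adjusted p up to 0.106, without replicate 2 of PBS with IFN-4a) or replicate 2 of anti-CD3 alone (adjusted p = 0.0504). None of 7 rows of cytosolic iron-sulfur insertion genes and none of 4 genes of proteins reported to bind viperin passed in either state. At an unadjusted p under 0.05 in limma there were 1 and 2 in stimulated cells and 1 and 3 in resting cells, for the insertion and the binding genes in that order.

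Viperin and Cmpk2 act in nucleotide metabolism. With IFN-4a, 1.97% of all rows were higher and 1.36% lower in stimulated cells, and 4.17% and 8.08% in resting cells. Of 13 rows of CTP and nucleotide kinase genes, 1 was higher with IFN-4a in stimulated cells and none lower, and 1 was higher and 1 lower in resting cells. The gene higher in both states was Samhd1, a dNTP hydrolase that restricts viruses, at log2 0.34 in stimulated and 1.31 in resting cells, with an interaction of -0.97 (adjusted p = 7.86e-06) that still passed after quantile normalization (-0.75). The row lower in resting cells was 1 of 2 rows of Uck2, a uridine and cytidine kinase gene. Its call was lost under 2 of 21 alternatives, when a gene's rows were averaged or only the one with the highest mean was kept. Both bring in the other Uck2 row, which stood at log2 -0.17 (adjusted p = 0.568 in limma). Anti-CD3 alone raised 7 of the 13 rows and lowered 4, against 13.9% and 17.5% of all rows. The 7 took in both rows of Uck2 and Tk1, the thymidine kinase gene (log2 0.22, adjusted p = 0.0382), whose call was lost under 8 of 21 alternatives, among them the replicate block (adjusted p = 0.0505) and leaving out replicate 1 or 2 of anti-CD3 alone, 1 or 2 of PBS or 3 of anti-CD3 with IFN-4a (adjusted p up to 0.152). Ctps, the CTP synthase gene, rose by log2 2.29 (adjusted p = 2.3e-12), and its paralog Ctps2 fell by 0.91. Nme1, a nucleoside diphosphate kinase gene, rose by 1.61, and Dck, the deoxycytidine kinase gene, fell by 1.21. Cmpk1, the cytosolic relative of Cmpk2, stood at -0.09 with IFN-4a in stimulated and -0.05 in resting cells (adjusted p = 0.638 and 0.738).

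**Figure D4:**
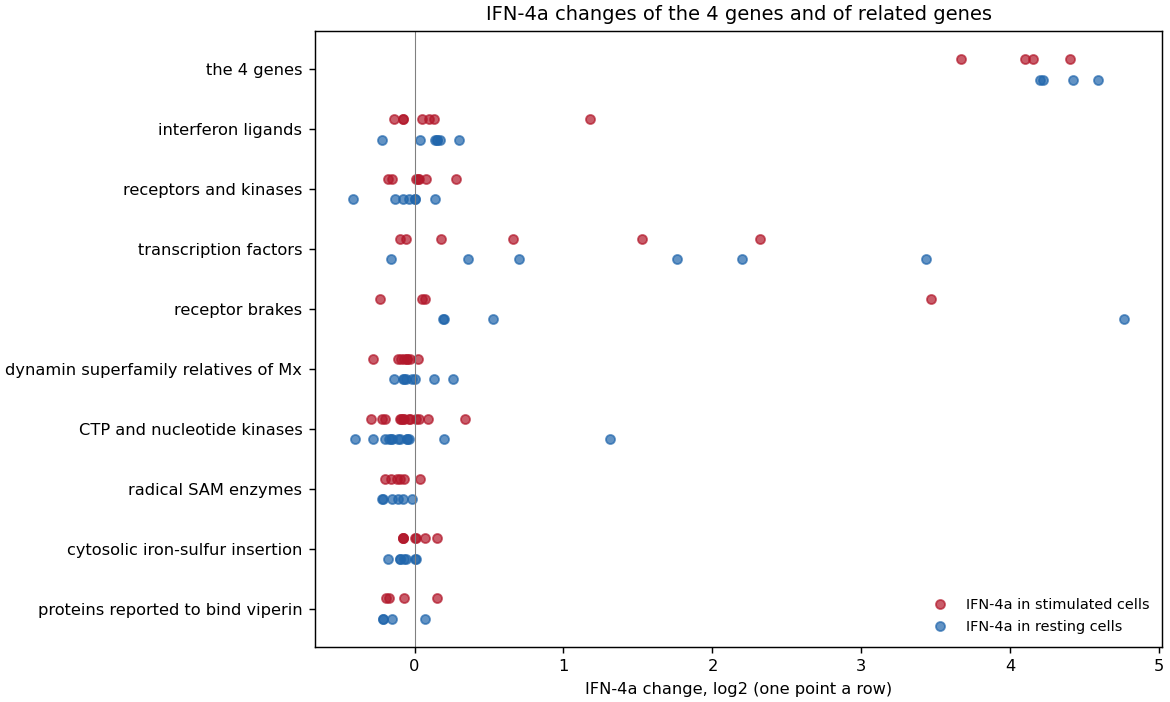
IFN-4a change (log2, horizontal axis) in stimulated and resting cells of the 4 genes and of each row of the related gene lists. The 4 genes lie between 3.67 and 4.59, and outside the transcription factors and Usp18 few related rows pass 1.

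Changes as wide as those of the 4 were not seen in the genes beside them. Of all rows, 1.97% were higher and 1.36% lower with IFN-4a in stimulated cells, and 4.17% and 8.08% in resting cells. Counts of 0 or 1 among 13 genes are near those shares. Among 13 measured neighbours, the 3 nearest on each side of both pairs plus Fam3b, none passed in limma with IFN-4a in stimulated cells (log2 -0.12 to 0.17, 1 at an unadjusted p under 0.05), and 1 was lower in resting cells. That gene was Rnf144a, a ubiquitin ligase gene next to Rsad2, at log2 -0.32 (adjusted p = 0.0133), whose call was lost after quantile normalization (adjusted p = 0.0549) and on leaving out replicate 1 or replicate 2 of PBS with IFN-4a or replicate 3 of PBS (adjusted p up to 0.0626). Fam3b, which lies between Mx1 and Mx2, stood at log2 0.12 in stimulated and 0.05 in resting cells (adjusted p = 0.332 and 0.636). Bace2 next to Mx1 and Tmprss2 next to Mx2 also did not pass.

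**Figure D5:**
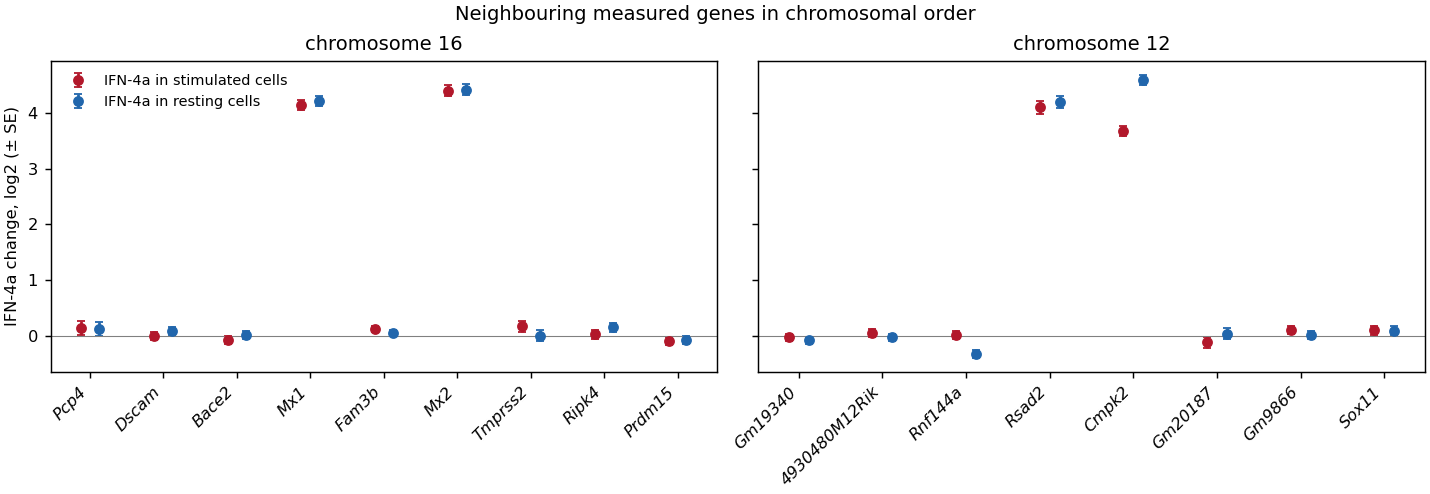
IFN-4a change (log2, bars are SE) of measured genes in their order along chromosomes 16 and 12, evenly spaced and not to distance. Only Mx1, Mx2, Rsad2 and Cmpk2 lie above 3.

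The genes most like each of the 4 were found by the root-mean-square difference over the 12 arrays, after each row's mean was removed. The 2 Mx genes differed from each other by log2 0.18, Rsad2 from Mx1 by 0.21 and Rsad2 from Cmpk2 by 0.23, while Mx2 and Cmpk2 were farthest apart at 0.40. The nearest row to Mx1 was Oasl1 (0.16), of the oligoadenylate synthetase-like genes, followed by Mx2 and Rsad2. Mx2 had Mx1 and then the Schlafen family gene Slfn5 (0.19) nearest. Oasl1 (0.15) was also nearest to Rsad2. Cmpk2 had Usp18 nearest (0.21), closely followed by Oasl1 (0.22), Rsad2 (0.23), Oas2 (0.24) and Ifit1 (0.24), which encodes a viral RNA-binding protein. On the deposited values, a smaller IFN-4a change in stimulated than in resting cells was not particular to Cmpk2. It was log2 3.47 and 4.76 in Usp18, 3.88 and 5.16 in Ifit1, and 4.11 and 4.86 in Oas2. The 2 values were closer in Oasl1 (4.04 and 4.34) and Rsad2 (4.10 and 4.20). After quantile normalization the stimulated minus resting difference was log2 -0.06 for Cmpk2 and -0.36 for Usp18, and neither passed in limma. Rescaled values of Ifit1 and Oas2 are not given here. The row at place 50 was 1.18 away from Mx1, 1.29 from Mx2, 1.11 from Rsad2 and 1.12 from Cmpk2. Likeness here rests mostly on the step between arrays with and without IFN-4a, which all these rows share. Of these alike genes with a promoter window, Ifit1 held 2 ISRE-like matches and Slfn5 held 1, and Oasl1, like Cmpk2, held none.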

How the data were processed

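Total RNA of 12 samples was labelled with biotin through the WT Plus kit of Affymetrix, per the labels' protocols, and read on single-channel arrays. The deposited values, read as log2, had each row's median subtracted by the authors, as the values show; no source used here states how probes were summarized or arrays normalized. Centring removes the signal's height above background, and precision rests on the number of arrays. Rows were named through the platform's probe table: 23521 had 1 symbol, 1814 several and 8458 none.

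Each 1-symbol row was fitted with limma 3.58.1 (R 4.3.3), with a mean per group over all 12 arrays and two-sided moderated tests on 8 residual plus 4.954 prior degrees of freedom, adjusted by Benjamini-Hochberg over all 23521 rows; calls are at an adjusted p under 0.05. No result from simulated data is given here for the fit. Unlike a choice of 1 row per gene by its mean, which centring makes uninformative, every row was kept. Named genes are the 4 genes, list members with the largest changes or a needed role, the 3 nearest neighbours on each side and the 5 most alike rows; Fam3b was added after its position was seen. Members and lists were chosen with earlier results of these data known. Promoters came from RefSeq (GRCm38.p6), where 2 of the 4 genes matched.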

Additional observations from a re-analysis of the deposited data

Results flagged for a closer look

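The interferon change of Cmpk2 was smaller in stimulated than in resting cells, by log2 -0.91 (SE 0.12). The gene was chosen with its interferon and anti-CD3 changes known, so this is a description and no p is given. All 3 anti-CD3 with IFN-4a arrays were below all 3 PBS with IFN-4a arrays, and all 3 anti-CD3 arrays were above all 3 PBS arrays. Of all rows, 22.0% were lower without overlap in the first comparison and 16.9% higher in the second. After quantile normalization the difference was -0.06, and without any single array it was between -0.99 and -0.84.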

How the results depend on the processing

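Quantile normalization of the centred values mattered most. The interaction was then 0.64 for Mx1, 1.02 for Mx2, 0.68 for Rsad2 and -0.06 for Cmpk2, and the anti-CD3 change of Cmpk2 without IFN-4a was -0.31. Rows called in the interaction fell to 110 (45 higher, 65 lower), against 201 (62 higher, 139 lower). By construction this step keeps only a value's place in its array, and these genes lie at the ends: Cmpk2 was at places 11 to 12 from the lowest of 33793 in anti-CD3 arrays and 19 to 32 in PBS arrays, and Mx2 at 1 to 5 and 35 to 71. Of 336 values of the 4 genes' changes under alternatives, 323 moved by less than the replicate SD, and the other 13 all came from quantile normalization. Array weights gave 1449 rows with IFN-4a in stimulated cells (666 higher, 783 lower), against 782 (463 higher, 319 lower), and only the groups compared gave 542 (382 higher, 160 lower); the cause was not tested. Leaving out 1 array gave 499 to 781 there, lowest on leaving out replicate 3 of anti-CD3 with IFN-4a; leaving out replicate 2 or replicate 3 of anti-CD3 alone gave 502 and 520. In resting cells it gave 1794 to 3052, lowest on leaving out replicate 2 of PBS with IFN-4a. The interactions ran from -0.13 to 0.02 for Mx1, -0.13 to 0.08 for Mx2, -0.21 to 0.01 for Rsad2 and -0.99 to -0.84 for Cmpk2. Same-numbered arrays deviated together in 8 of 18 pairs (r over 0.1). Their r ran from -0.0787 to 0.266, and that of differently numbered arrays of different groups from -0.247 to 0.182. Fewer of the differently numbered pairs passed 0.1, although there were more of them. Whether the numbers mark a pairing is thus not settled, and the main fit took none. With the replicate block Cmpk2 had an interaction of -0.91, and IFN-4a called 886 rows in stimulated and 2985 in resting cells.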
